A study of Mus musculus with 12 samples.

Results

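The inhibitors of cyclin-dependent kinases and the antiproliferative BTG/TOB genes were taken as a set of 10 genes, chosen by name and read in every library as RSEM expected counts and as TPM, transcripts per 1000000. The set was 10 of the 25097 genes in the tables. It holds the Cip/Kip inhibitors Cdkn1a (p21), Cdkn1b (p27) and Cdkn1c (p57), the INK4 inhibitors Cdkn2a, Cdkn2c (p18) and Cdkn2d (p19), and the BTG/TOB genes Btg1, Btg2, Btg3 and Tob1. All 10 were found in the tables, and 8 had enough counts to be tested. Cdkn1c and Cdkn2a did not.

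The cells were G1E-ER-GATA-1 cells, a mouse erythroid precursor line without a GATA-1 gene of its own, in which a GATA-1 joined to part of the estrogen receptor becomes active once estradiol is added. Transcripts were sequenced in 12 libraries, 3 in each of 4 groups: wild-type (WT) cells left untreated, WT cells given 1 µM beta-estradiol for 48 h, Alas2 cis-element mutant cells given the same estradiol, and these mutant cells given estradiol and 1 mM 5-aminolevulinic acid (5-ALA) for 48 h. The Alas2 enzyme of red cell precursors produces 5-ALA as it starts heme synthesis, a step that 5-ALA in the medium bypasses. All groups grew in medium with serum, erythropoietin, medium from Kit ligand-producing cells, monothioglycerol and puromycin. The labels call the mutant a double mutant but do not name the altered elements or the number of clones behind it. No untreated mutant library was among those analysed, so a difference that mutant cells had before estradiol cannot be told apart from one that arose with it. The labels give the libraries of a group replicate numbers and do not say that they came from separate cultures, so p-values measure the spread between these libraries, which may be technical.

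Cyclin-dependent kinases (CDKs) drive the cell cycle, and their inhibitors stop it. Cip/Kip proteins bind complexes of CDKs with several cyclins, while INK4 proteins bind Cdk4 and Cdk6 and keep D-type cyclins from them. BTG/TOB proteins slow division mainly by bringing the CCR4-NOT deadenylase to messenger RNAs, which shortens poly(A) tails. Erythroid precursors leave the cell cycle as they mature, and p27 and p18 are among the inhibitors known to act in that exit.

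The libraries held 20309085 to 43548387 expected counts, and the correlation of log2 values between libraries of a group was 0.998 to 0.999 across genes. Alas2 itself stood at 4.47 to 5.96 counts scaled to a library of 1000000 (CPM) in untreated WT cells, 4280 to 4309 in WT cells with estradiol, 5.20 to 9.48 in mutant cells with estradiol and 12.1 to 12.5 with 5-ALA, which fits the labels. The summed CPM of 10 erythroid markers was 1150.4 to 1174 in untreated WT cells, 76796 to 77688 with estradiol, 25072 to 26513 in the mutant and 68506 to 73790 with 5-ALA. In the test described below, all 10 were called higher with estradiol in WT cells, beside 43.3% of all genes tested. Against WT cells with estradiol, 2 were higher and 7 lower in the mutant, beside 35.1% and 33.6%. With 5-ALA 2 were higher and 6 lower than in those WT cells, beside 33.3% and 29%. The summed CPM of 6 megakaryocyte markers was 175 to 182, 1801 to 1827, 393 to 407 and 698 to 715 in the same order, with Gp1bb at 0. These markers did not move together: 4 had enough counts for the test described below. Of these 4, 2 were called higher and 2 lower with estradiol in WT cells, each by 2-fold or more. The 4 mast cell markers summed to 134 to 150 CPM in untreated cells and to at most 1.44 elsewhere, with Mcpt8 and Fcer1a at 0, while all 6 granulocyte and all 4 lymphocyte markers lay below 1 CPM. The 5 fibroblast markers, nearly all of it Vim, summed to 122 to 135 CPM in untreated cells and at most 2.28 elsewhere. These sums differed between the same groups as the members did, and their part in the results was not tested. In such bulk libraries, fewer cells of a type and less RNA per cell cannot be told apart.

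Per transcript length, the members summed to 177 ± 3.09 TPM (SD, n = 3) in untreated WT cells, 2890.2 ± 20.7 with estradiol, 2323 ± 58.8 in mutant cells with estradiol and 2013 ± 16.0 with 5-ALA. In CPM the last 2 sums stood the other way, at 2967 ± 67.1 without and 3023 ± 16.0 with 5-ALA. Most of the sum came from Cdkn1a and Btg2, but not in the same shares. Cdkn1a held 47.9% of the members' TPM in untreated cells and 33.9% with estradiol. Btg2 went from 4.50% to 54.2%, then stood at 37.8% in the mutant and 40.9% with 5-ALA. By family, the Cip/Kip genes summed to 101 ± 4.07, 1171 ± 13.0, 1199 ± 44.6 and 1014 ± 8.54 TPM in the 4 groups in the order above. The INK4 genes summed to 51.0 ± 1.597, 88.3 ± 1.83, 186 ± 6.83 and 125 ± 6.13 TPM. The BTG/TOB genes summed to 25.3 ± 0.767, 1631 ± 15.3, 937 ± 11.2 and 874 ± 17.8 TPM. Between mutant and WT cells with estradiol, the INK4 sum had a log2 ratio of 1.08 in TPM and 0.89 in CPM, and the BTG/TOB sum one of -0.80 and -0.99. The Cip/Kip ratio was near 0 and changed sign, 0.03 in TPM and -0.13 in CPM.

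The order of the members by TPM changed with estradiol. In untreated cells Cdkn1a led at 85.1 ± 4.15 TPM (SD, n = 3), followed by Cdkn2c at 31.4 ± 1.1, Cdkn2d at 19.4 ± 1.29, Cdkn1b at 16.0 ± 0.635 and Btg2 at 7.99 ± 0.495. Tob1 at 6.71 ± 0.590 and Btg3 at 6.36 ± 0.552 did not differ beyond their spread, and Btg1 was lowest of the 8 at 4.25 ± 0.158. With estradiol, Btg2 led at 1566 ± 13.6 TPM, followed by Cdkn1a at 980.2 ± 13.3 and Cdkn1b at 191 ± 2.71. Cdkn2c at 44.3 ± 2.72 and Cdkn2d at 44.01 ± 1.2 then lay within each other's spread, as did Btg1 at 26.9 ± 0.111 and Tob1 at 26.3 ± 0.701, above Btg3 at 11.7 ± 2.90. In mutant cells Cdkn1a, at 982 ± 43.4 TPM, was above Btg2, at 877.5 ± 11.1. With 5-ALA, Cdkn1a at 843 ± 11.1 and Btg2 at 823 ± 17.5 overlapped.

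**Figure D1:**
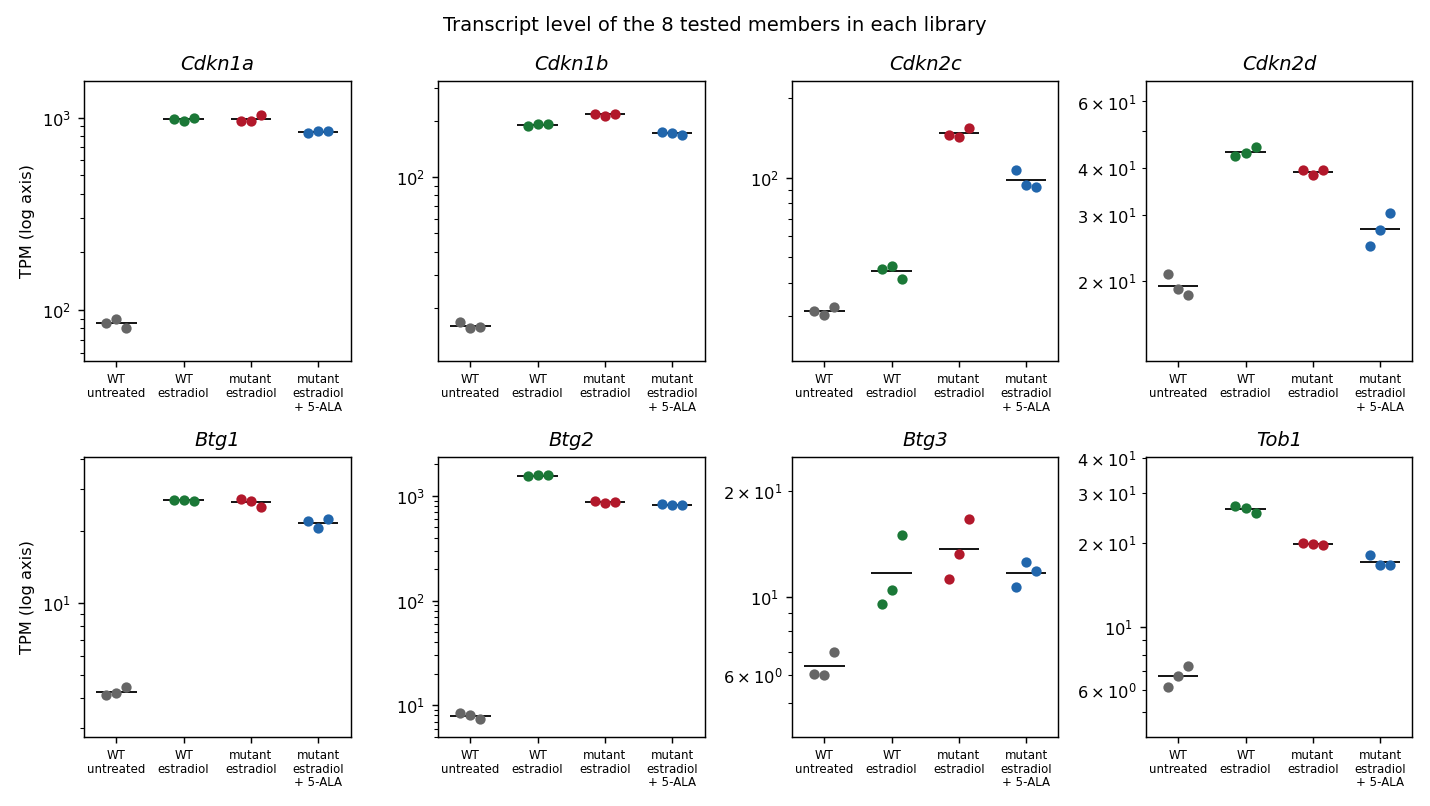
TPM (log axis, a different range in each panel) of the 8 tested members in each of the 12 libraries, with points for libraries and lines for the mean of 3 libraries. Btg2 rises from about 7.99 to 1566 TPM with estradiol in WT cells and lies lower in both mutant groups, while Cdkn2c is highest in the mutant without 5-ALA.

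Differences between groups were tested on counts and are given as log2 fold changes with their approximate SE and with p-values adjusted over 12115 genes by the Benjamini-Hochberg method (edgeR quasi-likelihood F test, called at an adjusted p below 0.05). CPM values allow one gene to be compared across libraries, not one gene with another. The first comparison sets WT cells after 48 h of estradiol, which activates GATA-1, against untreated WT cells. No time is given for the untreated cells, so effects of time in culture cannot be told apart from those of estradiol. Nor can effects of GATA-1 be told apart from other effects of estradiol. All 8 tested members were called higher, 7 of them by 2-fold or more, and none lower. Of the 7, Btg3 passed 2-fold only narrowly, at a log2 fold change of 1.04. It was at 0.70 with library totals alone, 0.77 on log2(TPM + 1) and 0.84 on log2(TPM + 0.1). The median log2 fold change of the 8 was 2.60, against -0.03 for all genes tested. Of all genes tested, 43.3% were called higher, 46.4% lower and 26.5% higher and 30.3% lower by 2-fold or more, and in 90.2% the groups did not overlap.

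Among the Cip/Kip genes, both tested members rose more than 13-fold in the main fit. The rise was smaller with library totals alone, at log2 fold changes of 3.40 for Cdkn1a and 3.42 for Cdkn1b. Cdkn1a, a target gene of p53 whose protein p21 inhibits several CDKs, lies at chr17:29090976-29100727 on the plus strand of mm10. Its CPM was 82.5, 83.0 and 80.3 in the 3 untreated libraries and 1103, 1079 and 1103 with estradiol, a log2 fold change of 3.74 ± 0.0316 (SE, adjusted p = 2.4e-37). Cdkn1b, at chr6:134920401-134925513 on the plus strand, encodes p27, which holds cyclin E and cyclin A complexes of Cdk2 inactive. It went from 30.7, 27.6 and 29.1 CPM to 395, 398 and 403 CPM, a log2 fold change of 3.76 ± 0.0286 (adjusted p = 2.08e-38). The lowest estradiol library was far above the highest untreated library for both genes.

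The third Cip/Kip gene, Cdkn1c, an imprinted gene at chr7:143458339-143461050 whose protein p57 arrests differentiating cells, had 1 count in the 3 untreated libraries together and 0 in each of the other groups. Over a group, a floor of 3 counts, which allows for counting error only, corresponds to 0.0290 to 0.0365 CPM. The observed counts of Cdkn1c lay under that floor in every group. Cdkn2a, at chr4:89274471-89294653, codes for the INK4 inhibitor p16 and, in another reading frame, for an inhibitor of Mdm2. It had 9 counts in untreated cells, 7 of them in replicate 1, and 0 in every other library. Against a floor of 3 counts over the group, it was at least 2.38-fold lower with estradiol if the 9 counts are taken as exact. This bound has no test, leaves out the counting error of the 9 and rests mostly on 1 library.

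The 2 other INK4 genes rose less than the Cip/Kip genes. Cdkn2d, at chr9:21288410-21291407 on the minus strand, encodes p19, which inhibits Cdk4 and Cdk6. It was at 13.9, 12.4 and 12.4 CPM in untreated libraries and 35.1, 35.3 and 36.8 CPM with estradiol, a log2 fold change of 1.46 ± 0.0645 (adjusted p = 1.86e-18). Cdkn2c, whose p18 protein has the same kinase targets, had the smallest rise of the 8. It went from 27.7, 24.2 and 26.1 CPM to 34.4, 34.8 and 31.1 CPM, a log2 fold change of 0.36 ± 0.0678 (adjusted p = 0.000149). The groups did not overlap, but scaling by library totals alone left a log2 fold change of 0.02 (adjusted p = 0.809).

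Every BTG/TOB gene rose, and Btg2 by far the most. Btg2, at chr1:134075170-134079120 on the minus strand, is an immediate early and p53-responsive gene whose protein binds the CCR4-NOT deadenylase. Its CPM was 12.4, 11.6 and 11.1 in untreated libraries and 2794, 2796 and 2821 with estradiol, a rise of 239-fold (log2 fold change 7.90 ± 0.0349, adjusted p = 1.82e-43). It was the 46th largest absolute change among the 12115 genes tested. Btg1, its closest relative, at chr10:96617006-96622809, went from 11.1, 11.1 and 12.1 CPM to 89.7, 88.5 and 88.3 CPM (log2 fold change 2.95 ± 0.0449, adjusted p = 5.54e-31). For both genes the 3 estradiol libraries were close together and lay clear of the untreated ones.

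Tob1, a larger relative that also joins the deadenylase to poly(A)-binding protein, lies at chr11:94211454-94215495 on the plus strand. It went from 7.47, 8.004 and 9.06 CPM to 40.2, 39.3 and 37.9 CPM (log2 fold change 2.26 ± 0.0596, adjusted p = 8.14e-25). Btg3, at chr16:78332637-78377192, was the scarcest tested member, at 2.05, 1.27 and 1.51 CPM untreated and 2.51, 3.81 and 3.92 CPM with estradiol (log2 fold change 1.04 ± 0.206, adjusted p = 8.71e-05). The groups did not overlap for either gene, although the lowest estradiol library of Btg3 was close to the highest untreated one. Exons of Btg3 overlap those of Cxadr on the other strand, and whether the counting used strand is not given in the sources used here. RSEM assigned much of its signal to a transcript of 442 bases, so its TPM depends on that choice.

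**Figure D2:**
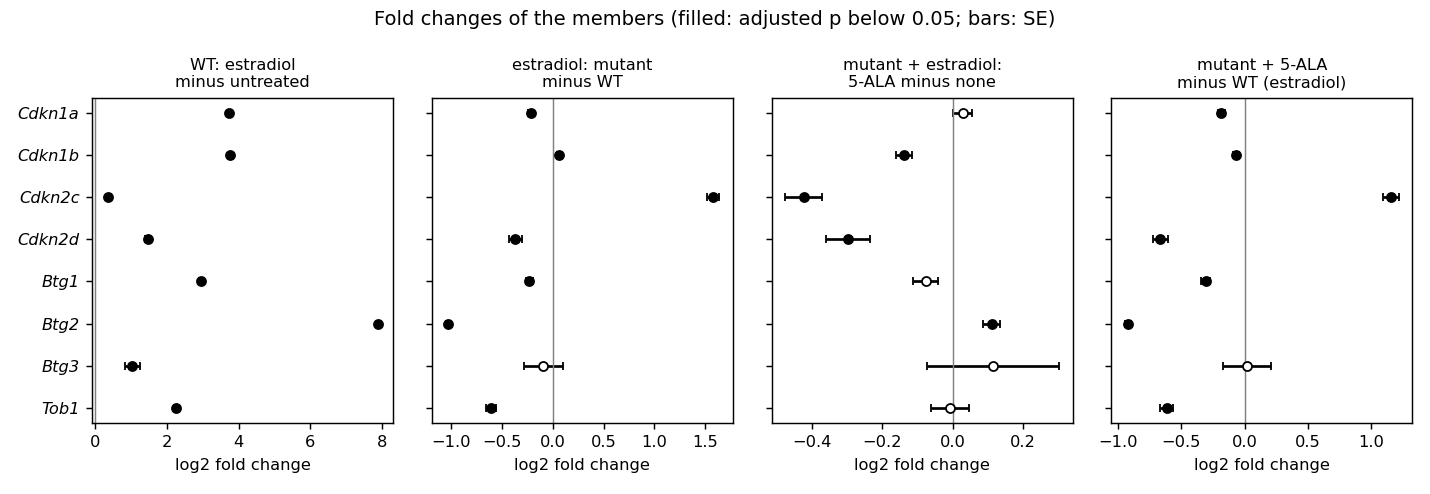
Log2 fold change of the 8 tested members in the 4 comparisons (a different scale in each panel), with bars for the approximate SE and filled points for an adjusted p below 0.05. All 8 lie above 0 for estradiol in WT cells, while in the mutant Cdkn2c lies at 1.58 and Btg2 at -1.03.

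Promoters of the members were searched because all those tested rose when GATA-1 was activated. Those shown are the 2 windows with a match and, without one, that of Btg2. The 250 bases before each RefSeq start (GRCm38.p6) were searched on both strands for the GATA motif spelled as AGATAA in the first form searched, as TGATAA in the second, as AGATAG in the next and as TGATAG in the last. RefSeq windows were at hand for 9 members, 13 windows in all, and 2 of the 13 held a match. Among all 32817 windows of the same length, 8714 held one, or 26.6%. The matches were in Tob1 and at the upstream start of Cdkn1a, both TGATAG on the minus strand and so read on the printed plus strand as the capitals CTATCA. A match describes letters and no binding was measured. The windows are chr17:29090729-29090978 (plus strand) for Cdkn1a, chr11:94211204-94211453 (plus strand) for Tob1 and, with no match, chr1:134079156-134079405 (minus strand) for Btg2, the member with the largest rise.
Cdkn1a upstream start: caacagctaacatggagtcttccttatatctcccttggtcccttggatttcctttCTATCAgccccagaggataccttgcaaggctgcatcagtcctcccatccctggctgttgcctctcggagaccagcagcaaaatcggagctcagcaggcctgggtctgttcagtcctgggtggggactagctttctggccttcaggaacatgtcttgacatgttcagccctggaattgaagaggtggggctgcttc
Tob1: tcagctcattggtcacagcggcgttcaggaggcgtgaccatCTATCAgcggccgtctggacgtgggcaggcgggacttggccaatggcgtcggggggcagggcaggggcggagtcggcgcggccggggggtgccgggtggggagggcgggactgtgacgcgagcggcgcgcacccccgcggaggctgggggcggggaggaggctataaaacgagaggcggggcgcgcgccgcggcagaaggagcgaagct
Btg2: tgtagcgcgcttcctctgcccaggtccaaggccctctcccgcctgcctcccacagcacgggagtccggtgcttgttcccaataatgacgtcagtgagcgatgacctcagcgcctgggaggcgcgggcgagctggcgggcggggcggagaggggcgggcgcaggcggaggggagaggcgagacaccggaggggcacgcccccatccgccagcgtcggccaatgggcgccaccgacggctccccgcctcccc

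The Cdkn1a window held its match 195 bases before the start and the Tob1 window 209 bases before it. The Btg2 window had a GC content of 73.2%, the Tob1 window 73.6% and the Cdkn1a window 54.0%, against a median of 52.4% over all windows. The share of 26.6% among all windows was not matched for GC content.

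The next comparison asks how mutant cells, which hardly express Alas2, differed from WT cells under the same estradiol. Of the 8 tested members, 2 were called higher and 5 lower, and Btg3 was not called. Of all genes tested, 35.1% were called higher and 33.6% lower, in all 68.8%, so most genes passed the test here. The groups did not overlap in 7 of the 8 members and in 71.7% of all genes. By 2-fold or more, Cdkn2c was higher and Btg2 lower, against 5.18% and 6.6% of all genes. Btg2 passed 2-fold only narrowly, at a log2 fold change of -1.03. It was at -0.88 with library totals alone, -0.83 on log2(TPM + 1) and -0.84 on log2(TPM + 0.1). The members' median log2 fold change was -0.22, against -0.01 for all genes. The split between higher and lower calls depended on scaling: 51.1% of called genes were higher with TMM factors, 66.5% with library totals alone, and 70.7% or 70.8% on log2(TPM + 1) or log2(TPM + 0.1).

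Cdkn2c was the member that stood out upward. Its CPM was 34.4, 34.8 and 31.1 in WT cells and 96.5, 96.5 and 107 in mutant cells with estradiol, 2.99-fold higher (log2 fold change 1.58 ± 0.0587, adjusted p = 1.27e-12). The 3 libraries of the mutant without 5-ALA lay above 96 CPM and all 6 WT libraries, treated or not, below 35. Under the 23 alternative settings the log2 fold change was 1.53 to 1.73, called each time. The next 12 tested genes on each side of it on chromosome 4, spanning 7.26 Mb, had a median of -0.06, and 7 of these 24 were above 0.

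Btg2 was the member that stood out downward. It was at 2794, 2796 and 2821 CPM in WT cells and 1374, 1351 and 1391 CPM in the mutant, 2.04-fold lower (log2 fold change -1.03 ± 0.0241, adjusted p = 6.42e-25). All 3 mutant libraries lay below all 3 WT libraries with estradiol and far above the untreated ones. The next 12 tested genes on each side of Btg2 on chromosome 1, spanning 2.67 Mb, had a median of -0.11, and 9 of these 24 were above 0. Tob1 was also lower, at 25.8, 25.7 and 25.7 CPM against 40.2, 39.3 and 37.9 CPM (log2 fold change -0.61 ± 0.0524, adjusted p = 2.01e-11). Cdkn2d was at 27.8, 27.1 and 28.2 CPM against 35.1, 35.3 and 36.8 CPM (log2 fold change -0.37 ± 0.0600, adjusted p = 4.23e-06). Btg2, Tob1 and Cdkn2d kept their direction and call under all 23 alternative settings, at -1.05 to -0.83, -0.63 to -0.39 and -0.39 to -0.17.

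The 3 remaining calls were small and depended on scaling. Cdkn1a was at 918, 922 and 994 CPM in the mutant against 1103, 1079 and 1103 in WT cells, without overlap (log2 fold change -0.21 ± 0.0274, adjusted p = 6.21e-08), but its log2 difference was 0.0025 on both TPM scales and -0.06 with library totals alone (adjusted p = 0.0523). Btg1 was at 77.9, 76.5 and 73.2 CPM against 89.7, 88.5 and 88.3 (log2 fold change -0.23 ± 0.0348, adjusted p = 1.09e-06), and at -0.03, not called, on both TPM scales. Cdkn1b was at 419.6, 413 and 418 CPM against 395, 398 and 403 (log2 fold change 0.07 ± 0.0227, adjusted p = 0.0115), and at 0.04 with RLE factors or DESeq2 (adjusted p = 0.0762 and 0.0840). For Btg3 the groups overlapped, at 2.53, 3.02 and 3.83 CPM against 2.51, 3.81 and 3.92 (log2 fold change -0.09 ± 0.190, adjusted p = 0.682), and its sign turned in some settings, over a range of -0.27 to 0.24 without a call.

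The comparison of mutant cells with and without 5-ALA asks what changed when the product of Alas2 was supplied. Of the 8 tested members, 1 was called higher and 3 lower, and none changed by 2-fold. Of all genes tested, 21.6% were called higher and 21% lower, in all 42.6%, while 1.77% were higher and 0.537% lower by 2-fold or more. The members' median log2 fold change was -0.04, against 0.01 for all genes. The split again depended on scaling: 50.7% of called genes were higher with TMM factors, 23.6% with library totals alone and 12.4% or 12.3% on the TPM scales. This comparison shares its mutant libraries with the one before, so values that look like a return toward WT are not independent of the mutant difference.

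Cdkn2c fell with 5-ALA in every library, from 96.5, 96.5 and 107 CPM to 79.5, 72.1 and 72.9 CPM (log2 fold change -0.42 ± 0.0525, adjusted p = 9.84e-06). Cdkn2d fell too, from 27.8, 27.1 and 28.2 CPM to 19.9, 22.5 and 25.1 CPM (log2 fold change -0.30 ± 0.0621, adjusted p = 0.000288), and Cdkn1b from 419.6, 413 and 418 to 383, 379.5 and 376 CPM (log2 fold change -0.14 ± 0.0226, adjusted p = 1.26e-05). The groups overlapped for none of the 3, nor did they in 49.1% of all genes, and these 3 falls were called under all 23 alternative settings, at log2 fold changes of -0.60 to -0.37 for Cdkn2c, -0.51 to -0.22 for Cdkn2d and -0.34 to -0.13 for Cdkn1b. Cdkn2c moved toward its WT level and Cdkn2d away from it.

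Btg2, which was lower in the mutant, was at 1492, 1473 and 1481 CPM with 5-ALA against 1374, 1351 and 1391 without (log2 fold change 0.11 ± 0.0239, adjusted p = 0.000357), and its direction turned on the TPM scales, to -0.09 on both. Cdkn1a was not called, at 936, 973 and 983 CPM against 918, 922 and 994, nor was Btg1, at 71.9, 68.4 and 75.2 CPM against 77.9, 76.5 and 73.2. The edgeR log2 fold changes were 0.03 ± 0.0274 (adjusted p = 0.44) and -0.08 ± 0.0353 (adjusted p = 0.0837), and Cdkn1a turned to a called fall of -0.07 with library totals alone (adjusted p = 0.0247) and of -0.22 on both TPM scales (adjusted p = 0.000348 and 0.000355). Without mutant estradiol replicate 3, Cdkn1a was instead called higher, at 0.07 (adjusted p = 0.0445). Btg1 was called lower in 6 of the 23 settings, at -0.093 with upper-quartile factors, -0.18 with library totals alone, -0.27 and -0.28 on the TPM scales, -0.10 without mutant estradiol replicate 3 and -0.12 without 5-ALA replicate 3. Tob1 was at 26.5, 25.1 and 25.2 CPM against 25.8, 25.7 and 25.7 (log2 fold change -0.01 ± 0.0539, adjusted p = 0.923), but was called lower on both TPM scales, at -0.20 and -0.21 (adjusted p = 0.0105 and 0.0128). Btg3 was at 2.78, 3.86 and 3.64 CPM against 2.53, 3.02 and 3.83 (log2 fold change 0.11 ± 0.187, adjusted p = 0.671), and its sign turned on the TPM scales without a call. The CPM of the groups overlapped in Cdkn1a, Btg1, Tob1 and Btg3.

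With 5-ALA, mutant cells still differed from WT cells with estradiol in 7 of the 8 tested members, 1 called higher and 6 lower. Of all genes tested, 33.3% were called higher and 29% lower, in all 62.3%, in this comparison, which shares groups with both comparisons before it. By 2-fold or more, 3.59% of all genes were higher and 4.18% lower, and in 65.9% the groups did not overlap. Cdkn2c was 2.23-fold higher than in WT cells (log2 fold change 1.16 ± 0.0605, adjusted p = 1.37e-10). Btg2 was 1.89-fold lower (log2 fold change -0.92 ± 0.0240, adjusted p = 2.07e-23), Cdkn2d 1.58-fold lower (-0.66 ± 0.0615, adjusted p = 2.11e-10) and Tob1 1.53-fold lower (-0.61 ± 0.0526, adjusted p = 2.37e-11). Btg1 and Cdkn1a had log2 fold changes of -0.31 ± 0.0352 (adjusted p = 9.74e-09) and -0.18 ± 0.0274 (adjusted p = 9.4e-07). Cdkn1b, at -0.07 ± 0.0227 (adjusted p = 0.00807), lost its call with library totals alone, without the filter on low counts, and without any one of WT estradiol replicate 3, 5-ALA replicate 2 or 5-ALA replicate 3, at log2 fold changes of -0.02, -0.06, -0.06, -0.06 and -0.05.

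Cdkn2c also differed in the form of its transcript. The deposited tables list 2 transcripts for the gene, which GENCODE M21 places at chr4:109660876-109667189 on the minus strand of mm10. The longer, of 2471 bases, starts with an exon of 1580 bases, and the shorter, of 1106 bases, starts further downstream at 109665372, inside the first intron of the longer one. Both share the last exon and the same 504 coding bases, so they differ upstream of the coding sequence. The deposited gene length is a mean weighted by the abundance of the forms, and it was 1669, 1546 and 1495 bases in the untreated libraries. It was 1184 ± 3.38 bases (SD, n = 3) in WT cells with estradiol, 1221 ± 14.3 in the mutant and 1199.7 ± 22.5 with 5-ALA.

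From these lengths the shorter form made up 66.0% ± 6.54 (SD, n = 3) of Cdkn2c transcripts in untreated cells, 94.3% ± 0.248 with estradiol, 91.6% ± 1.05 in the mutant and 93.1% ± 1.65 with 5-ALA. In TPM the shorter form was at 20.7 ± 2.40, 41.7 ± 2.58, 134.7 ± 4.38 and 90.9 ± 9.40 in these groups, or 2.01-, 6.49- and 4.38-fold its untreated level. The longer form was at 10.7 ± 1.99, 2.54 ± 0.180, 12.5 ± 2.10 and 6.61 ± 1.13 TPM, or 0.238, 1.17 and 0.621 times its untreated level. So the small rise of the whole gene with estradiol in WT cells was a rise of the shorter form beside a fall of the longer one, while in the mutant both were above WT cells with estradiol. These levels are a description, without a test, and are approximate because the annotation release behind the deposited lengths is not given in the sources used here. For single-transcript members the deposited length equalled that of M21 in Btg2 (2743 bases) and Tob1 (2288 bases), and was 5010 against 5001 bases in Btg1 and 1271 against 1264 in Cdkn2d.

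The bases just before the start of the shorter form are shown because this form made up most Cdkn2c transcripts in every group. They are chr4:109665373-109665609 on the minus strand (RefSeq, GRCm38.p6), from the end of the longer form's first exon to the shorter form's start, with no GATA motif of the spellings searched and hence no capitals.
Cdkn2c short form: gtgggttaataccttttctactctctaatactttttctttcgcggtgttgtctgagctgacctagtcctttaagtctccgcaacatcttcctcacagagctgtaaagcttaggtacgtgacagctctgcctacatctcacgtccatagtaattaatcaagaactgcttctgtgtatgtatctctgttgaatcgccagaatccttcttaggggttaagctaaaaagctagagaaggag
The RefSeq window at this start had a GC content of 42.8%, and that at the other Cdkn2c start 77.2%.

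**Figure D3:**
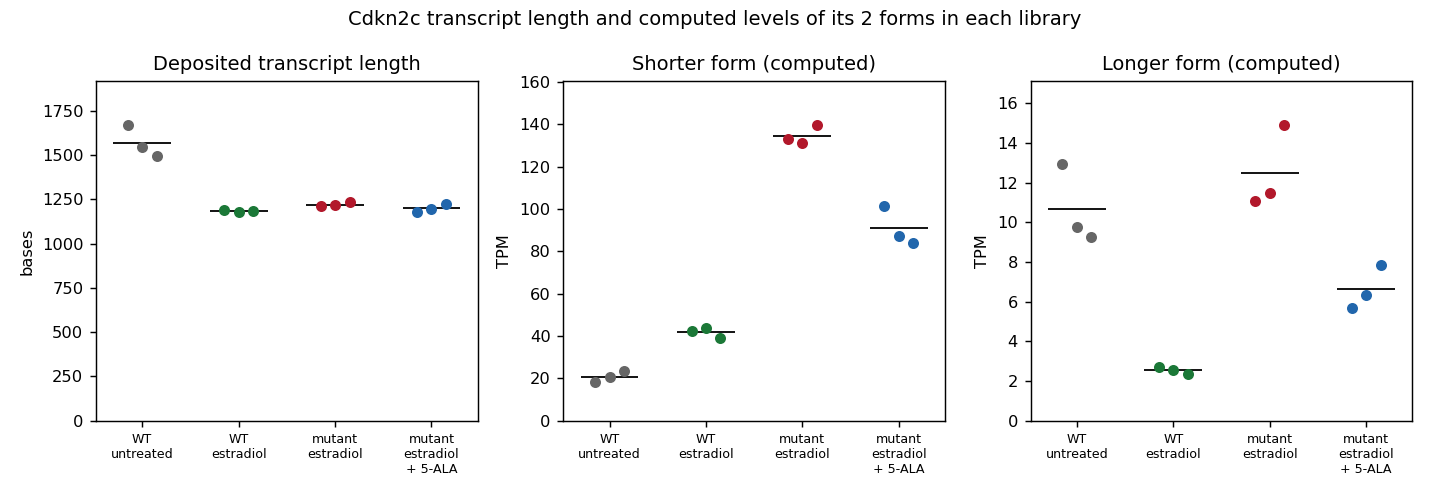
Deposited length of Cdkn2c in bases and the computed TPM of its shorter and longer forms in each library, with points for libraries and lines for the mean of 3. The length falls from about 1570 to 1184 bases with estradiol in WT cells, and the shorter form is highest in the mutant without 5-ALA, at 134.7 TPM.

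The deposited tables also list 2 transcripts for Cdkn1b, of 2393 and 4552 bases in M21, which share 591 coding bases and differ in the last exon. By the same calculation the shorter made up 53.2% ± 0.996 (SD, n = 3) in untreated cells, 63.1% ± 0.293 in WT cells with estradiol, 54.8% ± 1.49 in the mutant and 55.2% ± 0.899 with 5-ALA. The WT estradiol libraries thus lay above the others in this share. The change was much smaller than that of Cdkn2c.

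Genes whose log2 CPM followed a member most closely over the 12 libraries were sought among 7718 genes with a mean of at least 10 CPM. For Btg2 they were Bcl2l13 (Pearson r = 0.9999), Rmnd5a (0.9999) and Cmas (0.9998), which had the same order of groups over a smaller range: Bcl2l13 was at 113 CPM in untreated WT cells, 466 with estradiol, 391 in the mutant and 398 with 5-ALA. For Cdkn2c they were Mst1 (r = 0.995), Igbp1 (0.994) and U2af1l4 (0.993). Mst1 was at 15.2, 18.3, 42.5 and 34.4 CPM in these groups. These r describe libraries that fall into 4 groups, carry no test, and share the scaling factors of the libraries.

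The other genes of the pathway came from 7 lists. Their counts of calls stand beside these shares of all genes tested. With estradiol in WT cells 43.3% were called higher and 46.4% lower. In the mutant 35.1% were higher and 33.6% lower, and with 5-ALA 21.6% and 21%. Of 4 other genes of the same families, 3 could be tested and Btg4 was at 0. Tob2, the closest relative of Tob1, rose with estradiol from 12.3 to 57.5 CPM (log2 fold change 2.22, edgeR adjusted p = 9.77e-27), was not called between mutant and WT cells (0.04; called higher at 0.20 with library totals alone and 0.23 and 0.24 on the TPM scales), and fell with 5-ALA by 0.41 on the log2 scale (adjusted p = 2.53e-09). Cdkn3, a phosphatase of CDKs and no inhibitor of the families above, fell with estradiol (log2 fold change -3.02, adjusted p = 1.61e-11). Cdkn2b, the INK4 gene next to Cdkn2a, fell with estradiol (-1.53). It had 89, 24, 0 and 2 counts in the 4 groups. Against a floor of 3 counts over the group, it was at least 9.48-fold lower in the mutant than in WT cells with estradiol. That bound takes the 24 counts as exact and has no test.

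The kinases and cyclins that the inhibitors act on moved the other way from the members with estradiol. Of 12, 10 fell and 2 rose. Cdk1, the mitotic kinase, had a log2 fold change of -6.24, Cdk6 of -5.84 and Ccna2 of -4.05, while Ccnd3, a D-type cyclin known from the last erythroid divisions, rose by 1.54 and Ccnd1 by 1.37 from below 1 CPM. In the mutant 6 were higher and 5 lower than in WT cells. The largest differences were Ccnd2 at 1.67, from 71.9 to 228 CPM, Ccne2 at -1.602 and Ccnb2 at -1.34. With 5-ALA 2 rose and 4 fell, led by Ccna2 at -0.77, Ccnb1 at -0.54 and Ccnd2 at -0.45, against 0 and 7 on log2(TPM + 1). Ccnd2 thus had the signs of Cdkn2c in both comparisons, higher in the mutant and lower with 5-ALA, as values side by side. With estradiol in WT cells it fell, from 421 to 71.9 CPM, while Cdkn2c rose slightly. The signs were not particular to Ccnd2, since E2f2, Pabpc4, Mcm2 and Top2a of the other lists had them too. Both comparisons share the mutant libraries without 5-ALA, so such opposite signs are not independent.

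Of 11 pocket protein and E2F genes, through which the inhibitors act on transcription, 9 fell and 2 rose with estradiol. E2f8 had a log2 fold change of -5.84, E2f2 of -4.60 and Rbl1 of -3.76, while Rb1 rose by 1.90 and Rbl2 by 0.64. In the mutant 5 were higher and 3 lower, with E2f7 at -1.80, E2f2 at 1.30 and E2f6 at -0.87. With 5-ALA 3 rose and 3 fell. All 7 genes of dividing cells fell with estradiol, among them Bub1b with a log2 fold change of -6.87, Aurkb with -6.80 and Top2a with -5.01. Their summed CPM was 2581 to 2628 in untreated libraries, 142 to 145 with estradiol, 172 to 179 in the mutant and 159 to 163 with 5-ALA. The 7 did not move together in the mutant, where 4 were called higher and 2 lower than in WT cells with estradiol. The largest difference went against the sum: Bub1b had a log2 fold change of -1.998, from a mean of 2.18 to 0.559 CPM. Mcm2 was at 0.636 and Top2a at 0.586. With 5-ALA 0 rose and 4 fell.

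Among 8 genes of p27 and p21 turnover, 3 rose and 4 fell with estradiol. Skp2, which recognises p27 for degradation, had a log2 fold change of -4.98 and its cofactor Cks1b of -5.06, and Fbxo31 was at -3.11. In the mutant Skp2 was lower by a log2 fold change of -0.41, 1 of 3 called lower, with 1 higher, but on log2(TPM + 1) 6 were called higher and 0 lower. Skp2 lost its call with library totals alone (-0.26), on the TPM scales (-0.051 and -0.085), without WT estradiol replicate 1 (-0.26, adjusted p = 0.170) and without mutant estradiol replicate 2 (-0.32, adjusted p = 0.0800). With 5-ALA 3 rose and 1 fell, the largest being Cks1b at -0.33 and Ddb1 at 0.18, which turned to -0.021 on the TPM scales. Cks1b lost its call in a fit of the 2 groups alone (-0.34, adjusted p = 0.0721) and without mutant estradiol replicate 1 (-0.31, adjusted p = 0.0658), mutant estradiol replicate 2 (-0.33, adjusted p = 0.0841) or 5-ALA replicate 2 (-0.23, adjusted p = 0.231). Of 15 tested genes of deadenylation, the machinery that BTG/TOB proteins recruit, 7 rose and 7 fell with estradiol. These counts, like those in the mutant given next, lay near the shares of all genes tested. Pabpc4, a poly(A)-binding protein, fell by 3.50, Pan3 rose by 1.59 and Cnot4 rose by 1.46. In the mutant 5 were higher and 5 lower, with Pabpc4 at 1.23 and Pan3 at -0.45, against 8 higher and 2 lower on log2(TPM + 1). With 5-ALA 2 rose and 4 fell, with Pabpc4 at -0.45, against 0 and 13 on that scale.

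Of 10 tested regulators known to act upstream of the members, 6 rose and 3 fell with estradiol. Foxo3, a transcription factor that can induce Cdkn1b and Btg1, rose from 115 to 1447 CPM (log2 fold change 3.65), Mdm2, a target and inhibitor of p53, by 2.96, and Foxo4 by 2.65. Trp53, which encodes p53, had a log2 fold change of 0.26. In the mutant 3 were higher and 5 lower: Mdm2 at -0.95, Foxo3 at -0.66 and Ezh2 at 0.80 differed most, and on log2(TPM + 1) 5 were higher and 2 lower. With 5-ALA 3 rose and 2 fell, and Myc, which represses Cdkn1a, rose by 1.02, against 1 and 7 on log2(TPM + 1).

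**Figure D4:**
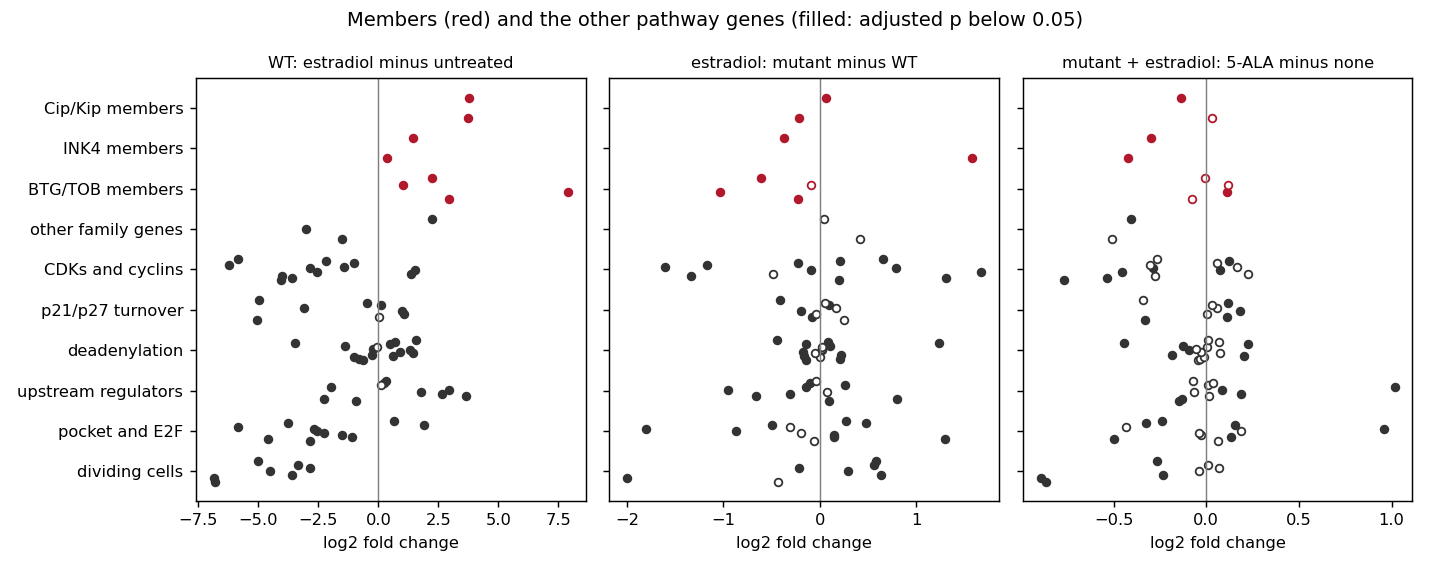
Log2 fold change of each tested member (red) and of the genes of the 7 other lists (dark) in 3 comparisons, with filled points for an adjusted p below 0.05 and Cdkn2b left out where a group had almost no counts. With estradiol all 8 tested members lie above 0 while 10 of 12 CDKs and cyclins and all 7 genes of dividing cells lie below it.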

How the data were processed

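Total RNA was extracted with TRIzol and sequenced from TruSeq libraries, per the labels. CASAVA 1.8.2, RSEM 1.2.20, Bowtie 1.1.1 and mm10 are named in the submitters' processing notes. Read length, the release of the annotation and strand use: not given in the sources used here. Per the file headers, the deposited tables give each gene's RSEM expected count, its TPM and FPKM (the latter not used), and a length in bases weighted over its transcripts. Identifiers matched GENCODE M21 symbols for 24746 of 25097 genes.

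Expected counts were rounded, filtered (filterByExpr by group, 12115 genes), scaled by TMM and fitted as 4 group means over all 12 libraries (edgeR 4.0.16 quasi-likelihood F test, robust, R 4.3.3), with Benjamini-Hochberg adjustment over the same 12115 genes and calls at an adjusted p below 0.05. The common biological coefficient of variation was 0.0334, so small differences pass. An approximate SE was had by dividing the size of a log2 fold change by √F. CPM are counts per 1000000 after TMM scaling. Shares of 2 transcript forms were solved from the deposited length and the M21 lengths. The fit was tested on simulated data. DESeq2 1.42.0 and limma 3.58.1 served as alternatives, the latter on log2(TPM + 1) and log2(TPM + 0.1), and 23 alternative settings were run.

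Every member is named. From each other list, all genes of lists of up to 4 and otherwise at most 3 called genes of largest change, from 1 CPM up, are named. Trp53, Rb1, Rbl2, Ccnd3, Ccnd1 and the repeats across comparisons were chosen after their values were seen. The members and lists were chosen with earlier results of these data known. Prmt1 was not used here. No pairing was used, since deviations of libraries with the same replicate number did not correlate.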

Additional observations from a re-analysis of the deposited data

How the results depend on the processing

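Of 736 values of the members under the 23 alternatives, 694 kept direction and call, 12 lost the call, 9 gained it, 7 reversed with a call, and 14 turned sign without one, 13 of them Btg3. Of 1902 values of the other named genes, 1863 kept both, 21 lost the call, 4 gained it, 8 reversed with a call and 6 turned sign without one. Of 1288 list counts, 89 moved by over 1.5 times. For estradiol in WT cells, 1 member was called lower without the filter (Cdkn2a, on few counts), and genes higher by 2-fold were 1818 on log2(TPM + 1). For mutant against WT cells, 1 member was called higher with RLE factors and 1 with DESeq2. On log2(TPM + 1) and log2(TPM + 0.1), 2331 and 2312 genes and 3 and 3 members were called lower, and 222 and 486 genes lower by 2-fold, against 517 with the stricter filter. There Cdkn1a was at 0.0025 on both scales.

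For 5-ALA, library totals alone gave 1434 genes higher and 4642 lower, and 0 members higher and 5 lower. The 2 TPM scales gave 806 and 789 genes higher, 5704 and 5649 lower, 0 and 0 members higher and 7 and 6 lower, with 37 and 101 genes higher by 2-fold and 24 lower by 2-fold on log2(TPM + 1). The stricter filter gave 142 higher and 35 lower by 2-fold, and a fit of the 2 groups alone 43 lower. Reversed values were -0.073 with totals and -0.22 and -0.22 on the TPM scales for Cdkn1a. On both TPM scales they were -0.092 and -0.092 for Btg2, -0.021 for Ddb1, -0.11 for Skp1a, -0.041 for Cnot2, and -0.036 and -0.037 for Foxo4. Leaving out 1 library gave 1 to 2 members called higher, with Cdkn1a the added one (log2 fold change 0.07, edgeR adjusted p = 0.0445) without mutant estradiol replicate 3. Btg2 lost its 5-ALA call with library totals alone, at 0.0095 (adjusted p = 0.774). For mutant cells with 5-ALA against WT cells, genes lower by 2-fold were 312 with the stricter filter, and 196 higher and 154 lower by 2-fold on log2(TPM + 1).

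As CPM in place of TPM sums, the Cip/Kip log2 ratio went from 3.53 to 3.75 with estradiol, from 0.03 to -0.13 in the mutant and from -0.24 to -0.020 with 5-ALA. The INK4 ratio went from 1.08 to 0.89 and from -0.57 to -0.39 in the last 2. The BTG/TOB ratio went from 6.01 to 6.48, -0.80 to -0.99 and -0.10 to 0.10. Library totals alone moved the median of all genes to -0.37 with estradiol, 0.14 in the mutant and -0.09 with 5-ALA, and log2(TPM + 1) to -0.23, 0.12 and -0.15. Relative to that median over the scalings, Cdkn2c in the mutant was 1.56 to 1.59, Btg2 -1.02 to -0.96 and Tob1 -0.60 to -0.52, and with 5-ALA Btg2 was 0.06 to 0.11.

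A fit with the replicate number as a block called 8, 2, 1 and 1 members higher and 0, 5, 3 and 6 lower in the 4 comparisons, as without it, and 5215 genes higher and 5617 lower with estradiol. The 18 pairs of libraries with the same number had correlations of -0.0937 to 0.0557, none over 0.1, and so gave no sign of pairing. Such correlations cannot show that libraries with the same number shared no culture or batch. Depth limits Cdkn1c and Cdkn2a, whose counts were too few to pass the filter.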
